A study of Mus musculus with 30 samples.

Results

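The genes described here are 41 lysosome genes: 8 membrane proteins, channels and transporters, 27 hydrolases with their activators and lipid-handling partners, and 6 subunits of the proton pump. They were taken from a list of symbols, not from their values, and each matched 1 of the 37991 gene identifiers in the count table, 20439 of which held any count. RNA was sequenced from spleen populations of 12 female mice in 30 libraries, each prepared from 500 sorted cells. The 6 WT B6 mice, aged 9.4 to 15.7 weeks, gave Ly6C-high monocytes (WT Mono) and red pulp macrophages (WT RPM). The 6 TLR7.1 mice, aged 10 to 15 weeks, gave the same populations (TLR7.1 Mono, TLR7.1 RPM) and inflammatory hemophagocytes (TLR7.1 iHPC), so that there were 5 groups of n = 6. TLR7.1 mice overexpress Tlr7, whose product senses single-stranded RNA in endosomes, and the labels state neither a promoter nor a cell type for the overexpression. All cells were sorted as live, CD45.2+, SiglecF- and Ly6G-. Mono were in addition Ly6C+, Ccr2+ and CD11b+, whereas RPM were Ly6C-, CD31low, VCAMhi and F4/80+ with CD11b absent or intermediate, and iHPC were Ly6C-, CD31hi, VCAMlow, F4/80low and CD11b+. No iHPC came from WT mice, so iHPC could be compared only with the other TLR7.1 populations.

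Lysosomes break down what a cell takes up or discards. Their membrane carries heavily glycosylated proteins such as LAMP1 and LAMP2, transporters export the products, and the vacuolar ATPase (V-ATPase) pumps protons to acidify the lumen in which the hydrolases work. Macrophages of the splenic red pulp use this compartment to digest aged red blood cells. Hemophagocytes are phagocytes that have engulfed blood cells.

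Levels below are CPM, read counts scaled to a common library size, after TMM normalization, which corrects for the composition of each library. Differences are log2 fold changes from edgeR's quasi-likelihood test over 11030 genes, and a gene was called at a Benjamini-Hochberg adjusted p under 0.05. All 41 lysosome genes passed the filter on low counts. Library totals ran from 95002 to 1932427 counts. Group medians were 1584430 in WT Mono and 544757 in WT RPM, 1656511.5 in monocytes and 820242 in macrophages of TLR7.1 mice, and 1112665 in iHPC. The median coefficient of variation of the 41 genes over the 6 mice was 13.4% in WT Mono and 29% in WT RPM, 12.9% in monocytes and 33.4% in macrophages of TLR7.1 mice, and 22.3% in iHPC. The macrophage values thus varied most, and the part of depth in this was not tested. Tlr7, the overexpressed gene, ran from 107 to 384 CPM over the 12 WT libraries and from 497 to 1531 CPM over the 18 TLR7.1 libraries, with no overlap. It was higher in TLR7.1 than in WT mice by 1.70 ± 0.22 in Mono (adjusted p = 5.94e-06) and 2.18 ± 0.23 in RPM (adjusted p = 2.60e-07), as log2 fold change ± SE. The sorted identities were visible in their markers. Summed over 8 red pulp macrophage markers, TLR7.1 RPM held 6485 to 14333 CPM and iHPC 1616 to 2511 CPM. The sum of 7 monocyte markers was 5468 to 6503 CPM in TLR7.1 Mono and 34.2 to 94.3 CPM in iHPC, where 1 of the 7 was at 0 in every library. Markers of other cells also differed. Basophil and mast cell markers summed to 1605 to 3073 CPM in every iHPC library but that of mouse 24261, which held 2.78 CPM. In every other group their sum was at most 21.4 CPM. Neutrophil markers summed to 141 to 1521 CPM in iHPC, 53.6 to 440 CPM in TLR7.1 RPM and 611 to 2230 CPM in TLR7.1 Mono. B cell markers reached 3145 CPM in TLR7.1 RPM against 1864 CPM in WT RPM. The 18 genes of a dissociation response list, mainly immediate early and heat shock genes, summed to 1070 to 2000 CPM in TLR7.1 RPM, 2047 to 3124 CPM in iHPC and 5140 to 7088 CPM in TLR7.1 Mono. The part of these genes in the results below was not tested. In bulk libraries, fewer cells of a type and less RNA per cell cannot be told apart.

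As a set, these 41 genes took a similar share of the RNA in monocytes and WT macrophages and a smaller one in hemophagocytes. This does not extend to all lysosome genes: the sum of 94 others, given further on, was higher in WT RPM than in WT Mono. The summed level of the 41 was 13972 ± 542 CPM in WT Mono and 13872 ± 859 in WT RPM, 13487 ± 663 in monocytes and 12361 ± 1994 in macrophages of TLR7.1 mice, and 11061 ± 673 in iHPC (mean ± SD, n = 6). All 6 iHPC libraries, at 9791 to 11784 CPM, lay below all 6 TLR7.1 Mono libraries, at 12816 to 14565 CPM. They overlapped with TLR7.1 RPM, which ran from 9773 to 15381 CPM. The lowest TLR7.1 RPM library (mouse 24107) also had the highest plasma cell, B cell, T and NK cell and neutrophil marker sums of its group. Its plasma cell sum was 2550 CPM. The highest library (mouse 24380) had the lowest plasma cell sum, 331 CPM, and the fewest counts of the group, 268275. The library of mouse 24068 was high in both, with 2292 CPM of plasma cell markers and a summed level of 13259 CPM. Red pulp macrophage markers summed to 6485 CPM in mouse 24107, 12981 CPM in mouse 24068 and 14333 CPM in mouse 24380. Over the 6 TLR7.1 RPM libraries, this marker sum and the summed level of the lysosome genes had the same order. The part of other cells or of depth in this spread was not tested. The plot of summed level by library shows the range of each group.

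**Figure D1:**
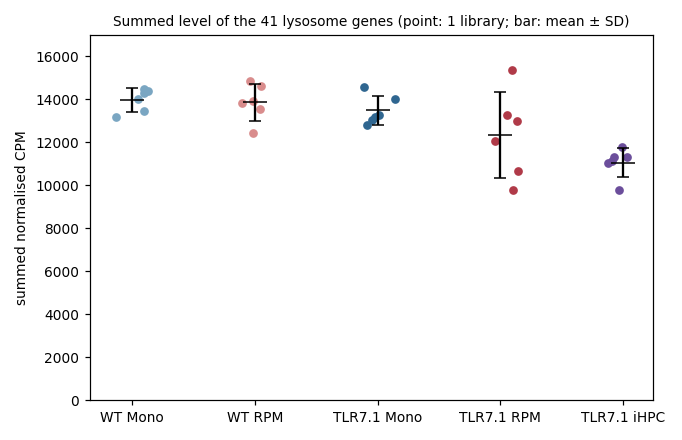
Summed TMM-normalised CPM of the 41 lysosome genes (vertical axis, from 0) in each of the 5 groups, with 1 point per library and the mean ± SD of n = 6. The iHPC points lie between 9791 and 11784 CPM, below every TLR7.1 Mono point, and the TLR7.1 RPM points spread from 9773 to 15381 CPM.

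Single genes moved in both directions beneath this sum. Between iHPC and TLR7.1 RPM, 15 of the 41 genes were called, 4 higher and 11 lower in iHPC, against 27.1% of all genes tested (13.6% higher and 13.5% lower). The median log2 fold change of the 41 genes was -0.19, and that of all genes was close to 0. Between iHPC and TLR7.1 Mono, 23 were called, 5 higher and 18 lower, against 38.7% of all genes (19.3% higher and 19.4% lower), with a median of -0.42. RPM differed from Mono in 20 lysosome genes in TLR7.1 mice (7 higher, 13 lower) and in 23 in WT mice (12 higher, 11 lower). The background was 46.6% in TLR7.1 mice (23.9% higher, 22.6% lower) and 46.2% in WT mice (23.7% higher, 22.5% lower). The lysosome genes called were 48.8% of the 41 in TLR7.1 mice and 56.1% in WT mice. Whether either share departs from the background was not tested. The genotypes differed in 0 lysosome genes in Mono (background 2.1%) and in 4 in RPM, all lower in TLR7.1 (background 8.25%, of which 4.48% higher and 3.77% lower). The iHPC and TLR7.1 RPM libraries were fully apart for 3 of 41 genes (background 11.2%), iHPC and TLR7.1 Mono for 19 (31.9%), RPM and Mono for 13 in TLR7.1 mice (27.2%) and 11 in WT mice (26.1%).

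**Figure D2:**
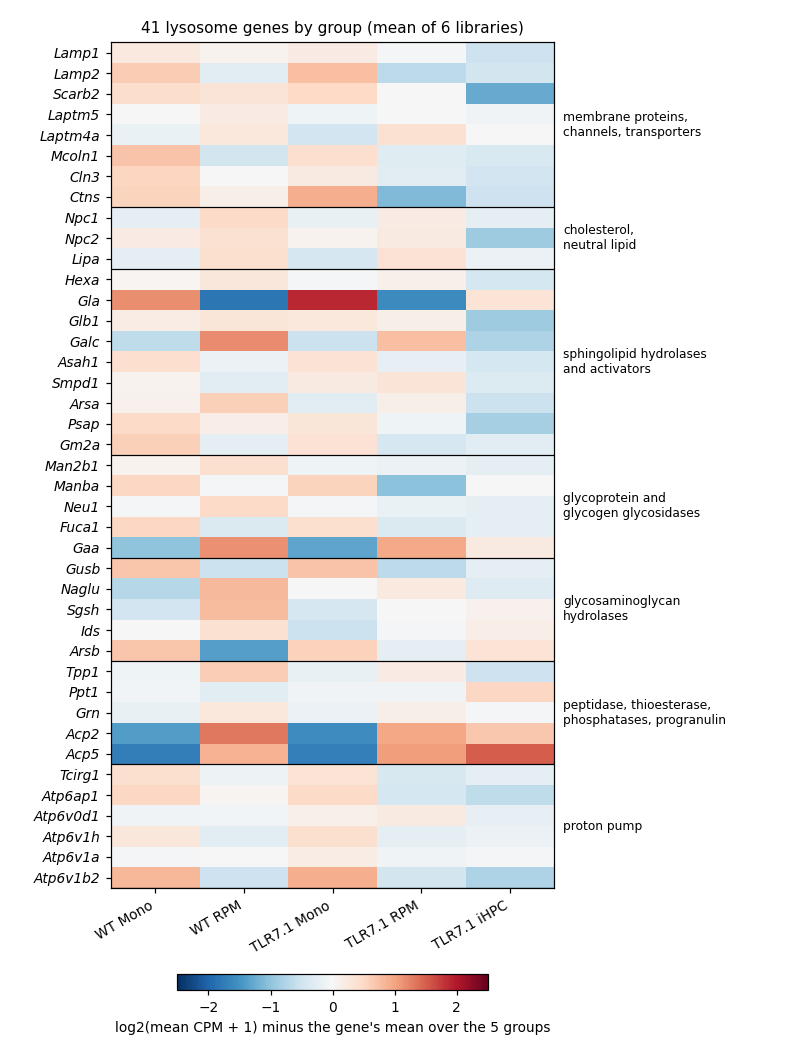
Mean level of each of the 41 lysosome genes (rows, ordered by role) in the 5 groups (columns), as log2(mean CPM + 1) minus the mean of that gene over the groups, red for above and blue for below. Acp2, Acp5 and Gaa are blue in both monocyte groups and Gla is blue in both RPM groups, while Scarb2, Npc2, Glb1 and Psap are bluest in iHPC.

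Many lysosome genes are known targets of TFEB and its relatives, transcription factors that bind the E-box CACGTG within a motif called CLEAR. RefSeq promoter windows of GRCm38.p6, from 250 bases before to 50 after a gene's start, were at hand for 37 of the 41 genes, all but Asah1, Atp6v1b2, Atp6v1h and Npc1. CACGTG, which reads the same on both strands, lay in the windows of 11 of the 37 genes (29.7%), against 8.09% of the 27025 genes with a window. These were Lamp1 with 4 matches, Cln3, Mcoln1 and Gla with 2 each, and Gaa, Glb1, Naglu, Sgsh, Arsa, Atp6v0d1 and Atp6v1a with 1 each. The longer CLEAR palindrome, which contains CACGTG, was found in 1 gene, Cln3 (2.7% of 37 genes, against 0.37% of all genes with a window). A match is a description of the letters and not a binding site. The 250 bases before the start are printed for Lamp1, with the most matches, for Cln3 and Mcoln1, for Gla and Gaa, which carry the motif and differed between RPM and Mono in opposite directions, and for Acp2, which differed as much and has no match. Capitals mark CACGTG, and each sequence runs 5′ to 3′ on the strand of its gene.
Lamp1 (chr8:13158911-13159160, + strand): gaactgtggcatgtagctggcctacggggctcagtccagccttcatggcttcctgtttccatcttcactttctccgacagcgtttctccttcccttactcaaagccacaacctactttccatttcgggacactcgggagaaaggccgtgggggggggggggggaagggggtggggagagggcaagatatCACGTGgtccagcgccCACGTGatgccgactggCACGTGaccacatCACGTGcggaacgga
Cln3 (chr7:126583237-126583486, - strand, 1 of 2 RefSeq starts): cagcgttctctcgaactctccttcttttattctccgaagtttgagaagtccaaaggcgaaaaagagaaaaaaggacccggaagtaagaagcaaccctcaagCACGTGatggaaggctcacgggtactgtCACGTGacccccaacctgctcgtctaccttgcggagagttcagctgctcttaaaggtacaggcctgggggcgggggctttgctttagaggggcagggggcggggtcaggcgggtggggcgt
Mcoln1 (chr8:3500269-3500518, + strand): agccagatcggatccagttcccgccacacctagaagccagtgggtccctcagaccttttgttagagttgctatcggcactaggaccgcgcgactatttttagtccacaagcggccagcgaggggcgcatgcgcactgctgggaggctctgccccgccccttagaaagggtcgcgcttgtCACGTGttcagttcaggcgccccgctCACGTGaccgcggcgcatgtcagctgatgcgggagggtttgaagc
Gla (chrX:134601006-134601255, - strand): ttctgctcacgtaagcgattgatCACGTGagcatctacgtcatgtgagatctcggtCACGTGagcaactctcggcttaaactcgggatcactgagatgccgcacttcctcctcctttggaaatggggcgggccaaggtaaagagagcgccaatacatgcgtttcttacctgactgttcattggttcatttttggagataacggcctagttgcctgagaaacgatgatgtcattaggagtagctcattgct
Gaa (chr11:119267713-119267962, + strand): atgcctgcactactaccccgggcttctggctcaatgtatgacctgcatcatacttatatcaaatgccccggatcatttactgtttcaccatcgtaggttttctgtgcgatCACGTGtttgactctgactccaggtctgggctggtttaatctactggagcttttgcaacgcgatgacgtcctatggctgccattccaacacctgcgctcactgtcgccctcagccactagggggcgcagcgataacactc
Acp2 (chr2:91202662-91202911, + strand): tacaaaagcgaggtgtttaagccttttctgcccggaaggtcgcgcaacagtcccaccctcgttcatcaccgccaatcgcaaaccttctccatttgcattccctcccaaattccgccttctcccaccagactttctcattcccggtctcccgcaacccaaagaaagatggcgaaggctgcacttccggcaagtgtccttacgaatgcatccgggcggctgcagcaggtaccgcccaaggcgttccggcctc
Genes with and without the motif were called in both directions. Between iHPC and TLR7.1 Mono, 1 of the 11 genes with CACGTG was higher and 5 were lower, and of the 26 without it 4 were higher and 11 lower. Between iHPC and TLR7.1 RPM, 1 was higher and 3 lower with the motif, against 3 and 8 without it.

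Most membrane proteins were lower in iHPC than in monocytes, and fewer were called against macrophages. Of the 8 membrane proteins, channels and transporters, 1 was higher and 5 were lower in iHPC than in TLR7.1 Mono, and 0 were higher and 3 lower than in TLR7.1 RPM. The shares called were 75% and 37.5%, against 38.7% and 27.1% of all genes tested. Lamp1, a structural glycoprotein of the membrane, ran from 904 to 1130 CPM (median 958) in WT Mono and 758 to 1103 (869) in WT RPM, 908 to 1142 (942) in monocytes and 663 to 1256 (757) in macrophages of TLR7.1 mice, and 377 to 698 (618) in iHPC. The iHPC libraries lay below all monocyte libraries and overlapped with TLR7.1 RPM. Lamp1 was lower in iHPC than in Mono by -0.73 ± 0.14 (log2 fold change ± SE, adjusted p = 9.26e-05) and than in RPM by -0.48 ± 0.14 (adjusted p = 0.0106). The latter call rested on mouse 24380, whose RPM library is the highest of its group, at 1256 CPM, and whose iHPC library is the lowest, at 377 CPM: without that mouse the difference was -0.22 (adjusted p = 0.15).

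Scarb2, which encodes LIMP-2, the carrier of glucocerebrosidase to the lysosome, had the largest fall of the group. Its level was 135 to 204 CPM (median 190) in WT Mono and 106 to 222 (180) in WT RPM, 152 to 225 (184) in monocytes and 71.3 to 276 (114) in macrophages of TLR7.1 mice, and 23.3 to 85.1 (56.8) in iHPC. Every iHPC library was below every monocyte library, and the iHPC range reached into that of TLR7.1 RPM. The difference was -1.76 ± 0.27 from Mono (adjusted p = 3.19e-06) and -1.25 ± 0.28 from RPM (adjusted p = 0.000732), lower in 6 of 6 mice.

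Ctns, the cystine exporter, was low in both the macrophages and the hemophagocytes of TLR7.1 mice. It ran from 57.6 to 78.7 CPM (median 71.9) in WT Mono and 28.3 to 69.7 (54) in WT RPM, 75.1 to 114 (89.2) in monocytes and 0.775 to 36.5 (25.5) in macrophages of TLR7.1 mice, and 10.6 to 40.7 (36.4) in iHPC. Both TLR7.1 RPM and iHPC lay wholly below TLR7.1 Mono, with differences of -2.16 ± 0.41 (adjusted p = 6.28e-05) and -1.42 ± 0.38 (adjusted p = 0.00354). In WT mice the RPM difference from Mono was -0.45 ± 0.39 and was not called, and the test of the difference between genotypes, at -1.71 ± 0.57, did not pass either (adjusted p = 0.173). Lamp2, the receptor of chaperone-mediated autophagy, was lower in RPM than in Mono in both genotypes (-0.90 ± 0.15 in WT and -1.40 ± 0.15 in TLR7.1) and lower in iHPC than in Mono (-1.19 ± 0.15). Cln3, a membrane protein lost in juvenile Batten disease, was lower in iHPC than in Mono (-0.70 ± 0.25, adjusted p = 0.0229). That call was lost without mouse 24107 (-0.57), 24304 (-0.69) or 24308 (-0.64). Cln3 shares exonic bases with Apobr on the opposite strand, and as the strand setting of the counting is not given, reads of the overlap cannot be told apart.

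Laptm4a, a small transmembrane protein of late endosomes, was the only gene of the 41 that was called lower than RPM and higher than Mono in iHPC. It measured 242 to 269 CPM (median 255) in WT Mono and 235 to 418 (355) in WT RPM, 179 to 237 (202) in monocytes and 274 to 505 (356) in macrophages of TLR7.1 mice, and 243 to 387 (269) in iHPC. The iHPC libraries lay between, wholly above TLR7.1 Mono (0.46 ± 0.14, adjusted p = 0.0116) and overlapping with RPM (-0.38 ± 0.15, adjusted p = 0.0468). The RPM comparison was near the threshold: it was lost with the mouse as a block (adjusted p = 0.053) and without mouse 24068 (-0.27), 24261 (-0.31), 24304 (-0.40) or 24308 (-0.41). Laptm5, a hematopoietic relative with the highest CPM of the set in 4 of 5 groups, was not called in any comparison, at 847 to 1578 CPM in iHPC and 624 to 1862 CPM in TLR7.1 RPM. Mcoln1, the calcium channel TRPML1, was lower in RPM than in Mono in WT mice (-1.12 ± 0.40, adjusted p = 0.0219), a call lost without mouse 24117 (-1.05) or 24416 (-0.98), and its value in TLR7.1 mice was -0.74 ± 0.39.

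Of the 3 genes that move cholesterol and neutral lipid, Npc2 changed most in hemophagocytes. NPC2 binds cholesterol in the lumen and hands it to NPC1 in the membrane, and LIPA is the acid lipase that frees cholesterol from its esters. Npc2 ran from 710 to 874 CPM (median 797) in WT Mono and 578 to 1259 (928) in WT RPM, 674 to 789 (750) in monocytes and 579 to 1080 (781) in macrophages of TLR7.1 mice, and 303 to 459 (371) in iHPC. The 6 iHPC libraries were the lowest of all, with no overlap with either population. The difference was -1.10 ± 0.15 from RPM (adjusted p = 1.11e-06), lower in 6 of 6 mice, and -0.98 ± 0.15 from Mono (adjusted p = 3.99e-06). Lipa was higher in RPM than in Mono in both genotypes (0.65 ± 0.16 in WT and 0.78 ± 0.16 in TLR7.1), and lower in iHPC than in RPM (-0.50 ± 0.16, adjusted p = 0.0204), a call lost without mouse 24068 (-0.35), 24308 (-0.42) or 24380 (-0.43). Npc1 was higher in RPM than in Mono in WT mice (0.74 ± 0.25, adjusted p = 0.0162), with no overlap, though the call was lost without mouse 24117, 24214 or 24416 (0.66, 0.66 and 0.69). It shares exonic bases with Rmc1, which held more counts in all than Npc1 itself.

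Of the 9 sphingolipid hydrolases and activators, 0 were higher and 6 lower in iHPC than in TLR7.1 Mono, and 1 was higher, 4 were lower and 4 were not called against TLR7.1 RPM. The shares called were 66.7% and 55.6%, against 38.7% and 27.1% of all genes. Galc, the galactosylceramidase, had the largest fall from RPM. It measured 22.2 to 39.7 CPM (median 26.9) in WT Mono and 48.3 to 151 (102) in WT RPM, 20.5 to 38.8 (30.9) in monocytes and 50.8 to 94.3 (79) in macrophages of TLR7.1 mice, and 13.5 to 52.8 (21.4) in iHPC. The macrophages thus lay above the monocytes in both genotypes without overlap, and iHPC lay within or below the monocyte range apart from 1 library at 52.8 CPM. Galc was higher in RPM than in Mono by 1.87 ± 0.30 in WT (adjusted p = 4.68e-06) and by 1.31 ± 0.29 in TLR7.1 mice (adjusted p = 0.000464), and lower in iHPC than in RPM by -1.64 ± 0.31 (adjusted p = 0.000109).

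Gla, the alpha-galactosidase A that is lost in Fabry disease, had the opposite pattern among the populations. Its level was 18.4 to 42.5 CPM (median 24.5) in WT Mono and 0 to 10.9 (0) in WT RPM, 20.4 to 65.9 (45.5) in monocytes and 0 to 10.8 (1.3) in macrophages of TLR7.1 mice, and 8.17 to 28.2 (13.9) in iHPC. Monocytes were above RPM without overlap in both genotypes, and iHPC fell between with overlap on both sides. These levels rest on 20 counts in all 6 WT RPM libraries, 19 in TLR7.1 RPM and 83 in iHPC. Gla was lower in RPM than in Mono by -2.72 ± 0.65 in WT and -3.54 ± 0.64 in TLR7.1 mice (adjusted p = 0.000896 and 2.83e-05). In iHPC it was higher than in RPM by 1.88 ± 0.66 (adjusted p = 0.0301), a call lost with the mouse as a block (1.98, adjusted p = 0.057) and without mouse 24068 (1.75), 24261 (1.61), 24304 (1.66) or 24380 (1.58). It was lower than in Mono by -1.66 ± 0.55 (adjusted p = 0.0168), lost without mouse 24107 (-1.45).

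Psap encodes prosaposin, the precursor of the saposins that present sphingolipids to their hydrolases. It ran from 382 to 611 CPM in TLR7.1 RPM, 521 to 810 CPM in TLR7.1 Mono and 260 to 374 CPM in iHPC, so that iHPC lay below both without overlap. It was lower in iHPC than in RPM by -0.70 ± 0.13 (adjusted p = 6.56e-05) and than in Mono by -1.12 ± 0.13 (adjusted p = 1.03e-08), in 6 of 6 mice each. Glb1, the beta-galactosidase, was lower in iHPC than in Mono (-1.15 ± 0.27) and RPM (-1.03 ± 0.27, adjusted p = 0.00427). Without mouse 24308, whose RPM library held 145 CPM, the latter was -0.60 (adjusted p = 0.11). Hexa, the alpha subunit of beta-hexosaminidase, was lower in iHPC than in RPM (-0.56 ± 0.17) and Mono (-0.42 ± 0.17). The RPM call was lost without mouse 24261 (-0.52) or 24380 (-0.31), and the Mono call (adjusted p = 0.0434) with the mouse as a block (adjusted p = 0.056) and without any of 5 mice (24068, 24261, 24304, 24308 or 24380), at -0.35 to -0.46. Asah1, the acid ceramidase, and Gm2a, the activator that lifts GM2 ganglioside to hexosaminidase, were lower in both iHPC and RPM than in Mono. In TLR7.1 mice Gm2a differed by -0.67 ± 0.21 in iHPC and -0.81 ± 0.21 in RPM, and Asah1 by -0.77 ± 0.20 in iHPC and -0.56 ± 0.20 in RPM, the last lost without mouse 24068 (-0.47), 24304 (-0.50) or 24380 (-0.45). Smpd1, the acid sphingomyelinase, and Arsa, the arylsulfatase A, at medians of 17.3 and 20.4 CPM in iHPC, were not called in any comparison of all 30 libraries. Smpd1 was called lower in iHPC than in RPM without the libraries under 300000 counts (-1.16, adjusted p = 0.0265) or without mouse 24380 (-1.16, adjusted p = 0.0481), and lower than in Mono without the same libraries (-1.02, adjusted p = 0.03).

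**Figure D3:**
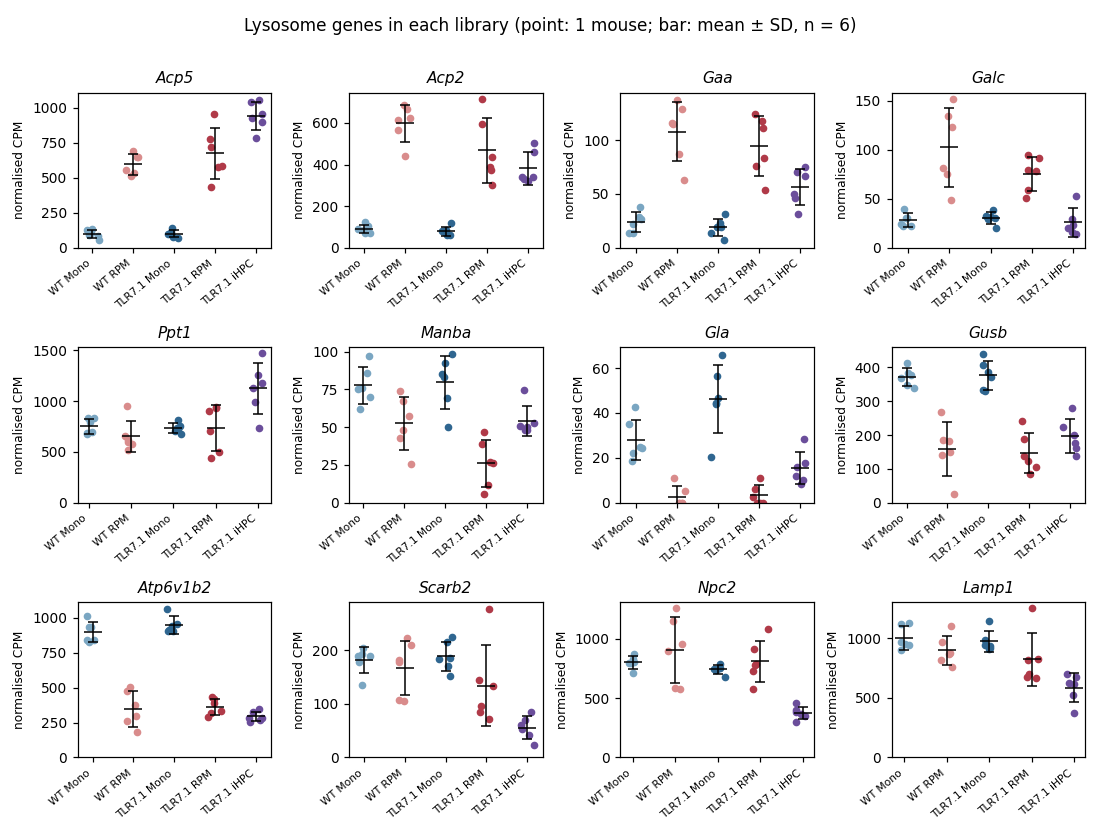
TMM-normalised CPM (vertical axes, from 0) of 12 lysosome genes in every library, by group, with 1 point per mouse and the mean ± SD of n = 6. Npc2 sits at 303 to 459 CPM in iHPC, below every other library, and Acp5 and Acp2 separate the monocyte groups from the other 3.

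The glycosidases of glycoproteins and glycogen did not move as a block. Of 5 genes, 1 was higher and 1 lower in iHPC than in Mono, and 1 was higher and 0 lower than in RPM. These shares, 40% and 20%, are near the 38.7% and 27.1% of all genes. Gaa, the acid alpha-glucosidase that degrades glycogen and is lost in Pompe disease, measured 13.7 to 37.6 CPM (median 24.3) in WT Mono and 63 to 138 (115) in WT RPM, 7.27 to 31.5 (19) in monocytes and 53.5 to 124 (97.5) in macrophages of TLR7.1 mice, and 31.7 to 75 (58.1) in iHPC. All RPM and all iHPC libraries lay above the monocyte libraries of the same genotype, while iHPC overlapped with TLR7.1 RPM. Gaa was higher than in Mono by 2.15 ± 0.32 in WT RPM (adjusted p = 1.03e-06), 2.31 ± 0.32 in TLR7.1 RPM (adjusted p = 2.7e-07) and 1.61 ± 0.31 in iHPC (adjusted p = 8.87e-05), and its iHPC value against RPM, -0.70 ± 0.30, was not called (adjusted p = 0.0814).

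Manba, the beta-mannosidase, was the single gene of the 41 with all iHPC libraries above all TLR7.1 RPM libraries. Its level was 61.8 to 97.4 CPM (median 75.4) in WT Mono and 25.8 to 74 (52.7) in WT RPM, 49.9 to 98.1 (84) in monocytes and 5.36 to 46.7 (26.7) in macrophages of TLR7.1 mice, and 48.1 to 74.5 (50.3) in iHPC. TLR7.1 RPM were the low group, and iHPC lay within the range of WT RPM but for 1 library at 74.5 CPM. Manba was higher in iHPC than in RPM by 1.04 ± 0.32 (adjusted p = 0.0126, higher in 6 of 6 mice), and 0.69 without mouse 24304 (adjusted p = 0.089). It was lower in TLR7.1 RPM than in TLR7.1 Mono by -1.60 ± 0.31 (adjusted p = 8.48e-05). Fuca1, the alpha-fucosidase, was lower than in Mono in iHPC (-0.62 ± 0.19) and in RPM of both genotypes (-0.76 ± 0.20 in TLR7.1 and -0.87 ± 0.20 in WT), without overlap. Man2b1, the alpha-mannosidase, and Neu1, the sialidase, were called in no iHPC comparison.

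Gusb, the beta-glucuronidase, was the only glycosaminoglycan hydrolase of 5 that was called in iHPC. It ran from 339 to 414 CPM (median 374) in WT Mono and 25.8 to 268 (166) in WT RPM, 329 to 438 (379) in monocytes and 83.8 to 242 (131) in macrophages of TLR7.1 mice, and 137 to 279 (189) in iHPC. The monocyte groups lay wholly above the other 3 groups. Gusb was lower than in Mono by -1.20 ± 0.26 in WT RPM (adjusted p = 0.000362), -1.37 ± 0.26 in TLR7.1 RPM (adjusted p = 6.08e-05) and -0.93 ± 0.26 in iHPC (adjusted p = 0.004). Naglu and Sgsh, both of the heparan sulfate pathway, were higher in RPM than in Mono in WT mice (1.60 ± 0.41 and 1.23 ± 0.48), and their TLR7.1 values were 0.25 ± 0.40 and 0.33 ± 0.48. The Sgsh call (adjusted p = 0.0344) was lost with the mouse as a block (1.10, adjusted p = 0.058) and without any of 5 WT mice (24028, 24214, 24323, 24415 or 24416), at 1.05 to 1.30. Ids, the iduronate sulfatase, and Arsb, the arylsulfatase B, were not called in any comparison of all 30 libraries. Arsb was listed at 0 in 5 of 6 libraries of each RPM group, and its 3 counts in WT RPM and 26 in TLR7.1 RPM come from 1 library each.

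The last set of hydrolases holds the genes that were highest in hemophagocytes. Of the peptidase Tpp1, the thioesterase Ppt1, progranulin (Grn) and the acid phosphatases Acp2 and Acp5, 3 were higher and 0 lower in iHPC than in Mono, and 2 were higher and 1 lower than in RPM. Each share was 60% of 5 genes, against 38.7% and 27.1% of all genes. Acp5, the tartrate-resistant acid phosphatase known from osteoclasts and macrophages, measured 55.6 to 132 CPM (median 98.5) in WT Mono and 511 to 694 (600) in WT RPM, 72.6 to 138 (97.6) in monocytes and 436 to 957 (654) in macrophages of TLR7.1 mice, and 786 to 1060 (942) in iHPC. Monocytes were low, macrophages higher, and the iHPC libraries overlapped with only the highest TLR7.1 RPM library. The difference from Mono was 2.60 ± 0.19 in WT RPM (adjusted p = 2.46e-13), 2.75 ± 0.19 in TLR7.1 RPM (adjusted p = 6.56e-14) and 3.24 ± 0.19 in iHPC (adjusted p = 2.03e-15). Against RPM, iHPC were higher by 0.49 ± 0.18 (adjusted p = 0.0345), in 6 of 6 mice, but the call was lost when only these 12 libraries were fitted (adjusted p = 0.067) and without mouse 24068 (0.53), 24107 (0.35), 24261 (0.52), 24304 (0.48) or 24308 (0.50).

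Acp2, the lysosomal acid phosphatase, followed Acp5 in separating monocytes from the rest. Its level was 68.5 to 123 CPM (median 87.5) in WT Mono and 440 to 685 (617) in WT RPM, 61.2 to 120 (75.3) in monocytes and 299 to 714 (413) in macrophages of TLR7.1 mice, and 322 to 504 (340) in iHPC. Macrophages and iHPC lay wholly above monocytes, and they overlapped with each other. The difference from Mono was 2.71 ± 0.20 in WT RPM (adjusted p = 4.78e-13), 2.54 ± 0.20 in TLR7.1 RPM (adjusted p = 2.25e-12) and 2.25 ± 0.20 in iHPC (adjusted p = 4.25e-11).

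Ppt1, the palmitoyl-protein thioesterase that removes fatty acids from proteins, was one of 2 genes called higher in iHPC than in both other populations, beside Acp5. It ran from 675 to 838 CPM (median 746) in WT Mono and 514 to 954 (607) in WT RPM, 678 to 818 (730) in monocytes and 435 to 946 (805) in macrophages of TLR7.1 mice, and 733 to 1477 (1155) in iHPC. Of the 6 iHPC libraries, the lowest overlapped with both TLR7.1 groups and the rest reached above them. Ppt1 was higher in iHPC than in RPM by 0.61 ± 0.17 (adjusted p = 0.00579, 6 of 6 mice) and than in Mono by 0.62 ± 0.17 (adjusted p = 0.00326, 6 of 6 mice), and this pair of calls held when any mouse was left out. Ppt1 shares exonic bases with Cap1 on the opposite strand. Tpp1, the tripeptidyl peptidase, was higher in RPM than in Mono in WT (0.75 ± 0.16) and lower in iHPC than in RPM (-0.73 ± 0.17, adjusted p = 0.00102). Grn was higher in RPM than in Mono in WT mice (0.44 ± 0.12, adjusted p = 0.00432), and in TLR7.1 mice its value was 0.29 ± 0.12 (adjusted p = 0.0503).

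The 6 proton pump genes of the set were lower than in monocytes wherever they were called, whereas most of the pump's other subunits that were called in RPM, given further on, were higher. Of the 6, 0 were higher and 4 lower in iHPC than in Mono, 0 and 4 in TLR7.1 RPM, and 0 and 3 in WT RPM. The shares called were 66.7%, 66.7% and 50%, against 38.7%, 46.6% and 46.2% of all genes. Atp6v1b2, a form of the catalytic-sector B subunit, measured 826 to 1012 CPM (median 887) in WT Mono and 182 to 502 (334) in WT RPM, 903 to 1066 (927) in monocytes and 291 to 431 (364) in macrophages of TLR7.1 mice, and 258 to 345 (283) in iHPC. Monocytes were apart from the other 3 groups, which overlapped. The difference from Mono was -1.32 ± 0.15 in WT RPM (adjusted p = 1.18e-08), -1.38 ± 0.15 in TLR7.1 RPM (adjusted p = 4.22e-09) and -1.69 ± 0.15 in iHPC (adjusted p = 8.26e-11). Atp6ap1, an accessory subunit, followed with -0.46 ± 0.19, -0.96 ± 0.19 and -1.14 ± 0.19, the first lost without mouse 24028 (-0.41), 24117 (-0.41) or 24415 (-0.47). Tcirg1, the a3 subunit of the membrane sector, differed by -0.53 ± 0.22 (adjusted p = 0.0484, and 0.051 with the mouse as a block), -0.79 ± 0.22 and -0.57 ± 0.22 (adjusted p = 0.0375). The WT RPM value lost its call without mouse 24117 (-0.49), 24214 (-0.60), 24323 (-0.49) or 24416 (-0.50), and the iHPC value without mouse 24068 (-0.61), 24261 (-0.49), 24304 (-0.52) or 24308 (-0.59).

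Atp6v0d1, the d subunit that joins the 2 sectors of the pump, was the only one of these 6 genes called between iHPC and RPM, at -0.41 ± 0.14 (adjusted p = 0.0229). The RPM library of mouse 24380 held 455 CPM against 236 to 285 CPM in the other 5. Without that mouse the difference was -0.22 (adjusted p = 0.17), and the call was also lost without mouse 24304 (-0.37) or 24308 (-0.42) and with the mouse as a block (adjusted p = 0.06). Its iHPC value against Mono, -0.34 ± 0.13 (adjusted p = 0.0426), was lost with that block (adjusted p = 0.081) and without mouse 24261 (-0.36), 24304 (-0.25), 24308 (-0.34) or 24380 (-0.26). Atp6v1h was lower in TLR7.1 RPM than in Mono (-0.62 ± 0.25, adjusted p = 0.0399), a call lost without any of 5 mice (24068, 24107, 24304, 24308 or 24380), at -0.43 to -0.68. Atp6v1a, the catalytic A subunit, was not called in any comparison, at medians of 193 to 251 CPM over the 5 groups.

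Of 16 further pump subunits, 12 could be tested. In RPM against Mono, 5 were higher and 1 lower in TLR7.1 mice and 6 were higher and 1 lower in WT mice. These were 50% and 58.3% of the 12, against 46.6% and 46.2% of all genes tested. In iHPC, 2 were higher and 1 lower than in Mono, and 0 were higher and 4 lower than in RPM. The shares were 25% and 33.3%, against 38.7% and 27.1% of all genes. Atp6v1f, a subunit of the catalytic sector, was higher in RPM than in Mono by 1.14 ± 0.18 in WT mice (adjusted p = 2.35e-06) and 1.08 ± 0.17 in TLR7.1 mice (adjusted p = 3.93e-06). Atp6v0e, a subunit of the membrane sector, was higher by 0.81 ± 0.15 and 0.66 ± 0.15. Atp6v0c, the proteolipid of that sector, was lower by -0.83 ± 0.34 and -1.16 ± 0.33. The summed level of all 16 was 2652 ± 184 CPM in WT Mono and 3460 ± 312 in WT RPM, 2727 ± 122 in monocytes and 3552 ± 474 in macrophages of TLR7.1 mice, and 2942 ± 212 in iHPC. That of the 6 was 2378 ± 87.6 CPM in WT Mono and 1544 ± 167 in WT RPM, 2491 ± 160 in monocytes and 1445 ± 234 in macrophages of TLR7.1 mice, and 1298 ± 80.6 in iHPC.

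**Figure D4:**
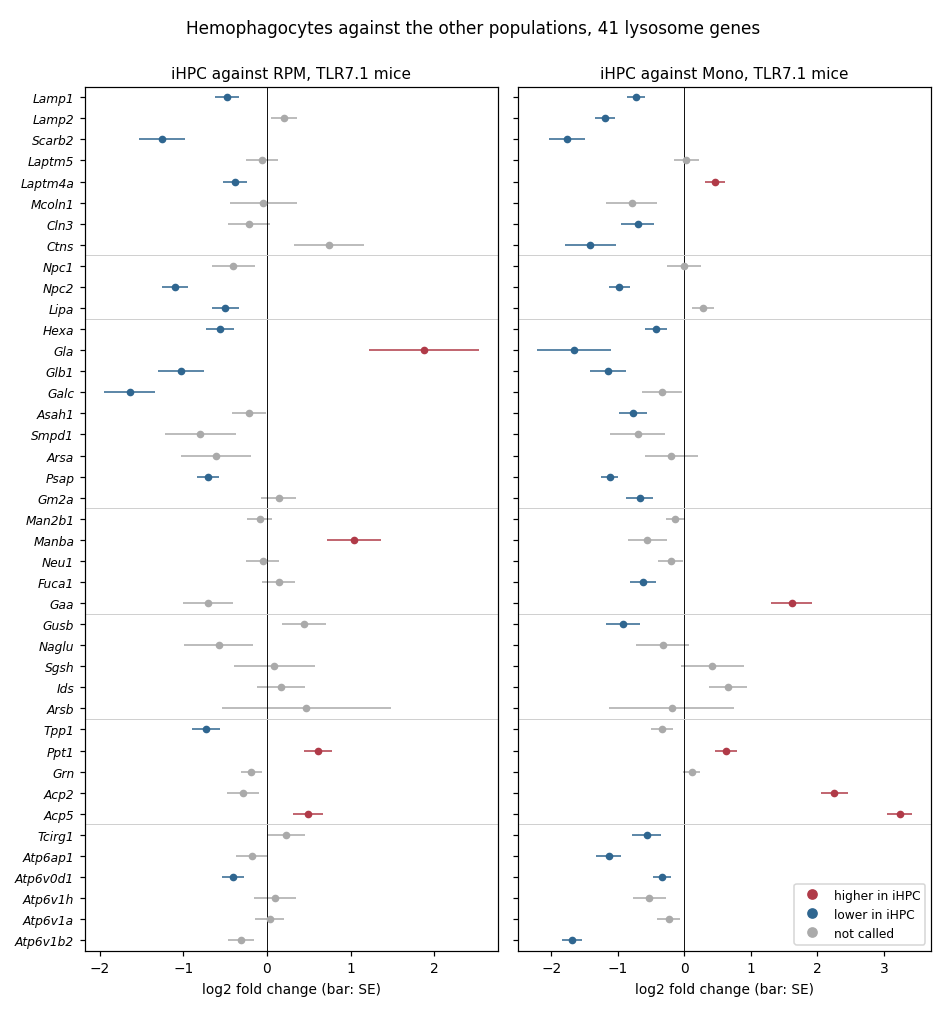
Log2 fold change ± SE of each of the 41 lysosome genes (rows, ordered by role) in iHPC against TLR7.1 RPM (left) and against TLR7.1 Mono (right), red for called higher, blue for called lower and grey for not called. Both panels share the iHPC libraries, with 4 red and 11 blue genes on the left and 5 red and 18 blue on the right.

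Set side by side, the comparisons of iHPC, which share the iHPC libraries, gave 2 genes called higher than both other populations (Acp5 and Ppt1) and 7 called lower than both (Lamp1, Scarb2, Npc2, Hexa, Glb1, Psap and Atp6v0d1). A further 10 were called lower than in Mono alone and 14 were called in neither comparison. The share of all genes with each of these joint patterns was not computed. Whether the counts are unusual for a list of genes thus cannot be told. Npc2, Psap and Ppt1 were the 3 of the 15 calls against RPM that held under every alternative processing tried. When only the 12 libraries compared were fitted, 7 calls remained of 39 genes tested.

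The order of levels among the 41 genes also differed by population. Per kilobase of exon, Lamp1 was the most abundant in monocytes, with 374 ± 36.5 CPM per kb in WT and 364 ± 32.4 in TLR7.1 mice, followed by Laptm5, Hexa and Psap in both genotypes. Laptm5 and Lamp1 led in WT RPM at 337 ± 114 and 335 ± 45.7 CPM per kb, less apart than their spread. In TLR7.1 RPM, Acp5 at 333 ± 90.2 and Lamp1 at 307 ± 83.8 led, also within their spread. Acp5 led in iHPC at 466 ± 49.5 CPM per kb, followed by Ppt1 at 307 ± 68.4, Laptm5 at 276 ± 71 and Grn at 246 ± 22.1, the last 3 overlapping within their SD. Arsb and Galc were at the other end, at 0.929 ± 1.13 and 1.73 ± 0.969 CPM per kb in iHPC. Over the 5 groups, the highest mean CPM of a gene was in WT RPM for 17 genes, WT Mono for 10, TLR7.1 Mono for 9, TLR7.1 RPM for 3 and iHPC for 2.

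The contrast of macrophages with monocytes could be compared between WT and TLR7.1 mice, which share no libraries. It was called in the same direction in both genotypes for 17 genes, 7 higher and 10 lower in RPM. These are 73.9% of the 23 WT calls and 85% of the 20 TLR7.1 calls, and 0 genes were called in opposite directions. Of all genes tested, 46.2% were called in WT and 46.6% in TLR7.1 mice. Neither their overlap nor the correlation given below was computed over all genes. The agreement thus cannot be read as particular to the lysosome genes. The genes higher in RPM of both genotypes were Acp5, Acp2, Gaa, Galc, Lipa, Laptm4a and Tpp1. The genes lower in both were Gla, Gusb, Atp6v1b2, Lamp2, Fuca1, Gm2a, Asah1, Psap, Atp6ap1 and Tcirg1. Called in WT alone were Mcoln1, Npc1, Neu1, Naglu, Sgsh and Grn, and in TLR7.1 alone Ctns, Manba and Atp6v1h. None of these passed the test of the difference between genotypes, which called 0 of 41 genes with edgeR and 0 with DESeq2 (5 at an unadjusted p under 0.05, lowest adjusted p = 0.173, background 0.689%). Across the 41 genes, which are not independent and whose differences share each genotype's depth, Pearson's r between the log2 fold changes was 0.87 and Spearman's rho 0.91. Some calls near the threshold were lost, with their direction kept, when 1 mouse was left out. In WT mice, Laptm4a was lost without mouse 24415 (0.36), Psap without 24214 (-0.30), 24323 (-0.32) or 24416 (-0.30), Asah1 without 24028 (-0.52), 24214 (-0.56), 24323 (-0.46) or 24416 (-0.50), and Neu1 without 24028 (0.44), 24214 (0.51), 24323 (0.48) or 24415 (0.39). In TLR7.1 mice, Psap was lost without mouse 24304 (-0.33). For Tpp1 in TLR7.1 mice (0.39 ± 0.16, adjusted p = 0.0458), the call was lost without mouse 24068 (0.39), 24261 (0.34), 24304 (0.42), 24308 (0.35) or 24380 (0.43), with RLE scaling (0.34, adjusted p = 0.0871) and with DESeq2 (0.33, adjusted p = 0.091).

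**Figure D5:**
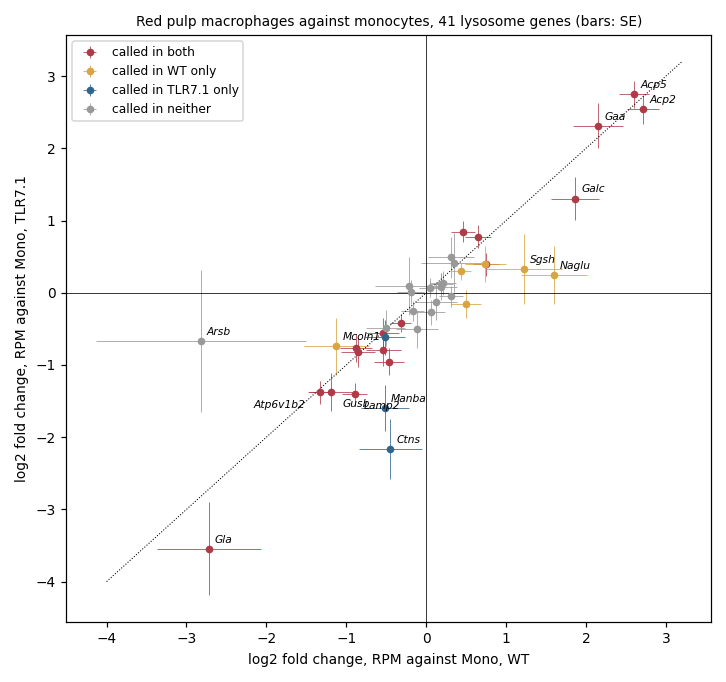
Log2 fold change ± SE of RPM against Mono for the 41 lysosome genes in WT mice (horizontal axis) and TLR7.1 mice (vertical axis), coloured by where each was called, with a dotted line of equality. The 17 genes called in both genotypes lie in the upper right and lower left, and Ctns and Manba lie below the line.

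In monocytes, 0 of the 41 genes were called between genotypes with edgeR, 1 had an unadjusted p under 0.05, and DESeq2 called 0. Values ran from -0.55 ± 0.28 for Ids to 0.73 ± 0.52 for Gla. Laptm4a had all TLR7.1 libraries (179 to 237 CPM) below all WT libraries (242 to 269 CPM), the only such gene (background 4.17%), at -0.31 ± 0.14 with the lowest adjusted p of 0.578. When only the 12 monocyte libraries were fitted, Laptm4a, Cln3 and Ids were called lower, at -0.30, -0.31 and -0.55 (adjusted p = 0.0211, 0.046 and 0.0295). The share of all genes called in that fit was not counted, so whether these calls exceed it cannot be told. Between the same libraries, neutrophil markers were higher in TLR7.1 Mono for 4 of 6 tested and lower for 0. Their sums were 611 to 2230 CPM against 521 to 715 CPM in WT Mono. The part of these markers in the differences was not tested.

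In red pulp macrophages, 4 lysosome genes were called, all lower in TLR7.1 mice. Neu1 ran from 165 to 307 CPM (median 257) in WT RPM and 103 to 207 (163) in TLR7.1 RPM, with 141 to 206 (180) in WT Mono, 156 to 208 (173) in TLR7.1 Mono and 95.4 to 229 (143) in iHPC. The ranges of both macrophage groups overlapped, as they did for all 41 genes (background 1.72%). The differences were -1.35 ± 0.43 for Ctns (adjusted p = 0.0459), -1.05 ± 0.33 for Manba (adjusted p = 0.0415), -0.65 ± 0.19 for Neu1 (adjusted p = 0.0342) and -0.57 ± 0.15 for Man2b1 (adjusted p = 0.0151), and DESeq2 called the same number. Of all 41 genes, 31 had values below 0, with a median of -0.18 against -0.01 for all genes. The calls were fragile. No call of the 4 was kept when only the 12 RPM libraries were fitted, and leaving out 1 mouse gave 0 to 4 calls. Man2b1 was lost without mouse 24304 (-0.52) or 24415 (-0.43), and Neu1 without 24028, 24107, 24214, 24304, 24308, 24323, 24415 or 24416 (-0.54 to -0.65). Ctns was lost without 24028, 24068, 24107, 24214, 24261, 24308, 24323, 24415 or 24416 (-1.03 to -1.44), and Manba without 24028, 24107, 24117, 24214, 24304, 24308, 24323, 24380 or 24415 (-0.81 to -1.05). Other gene lists differed between the same libraries. Of the 18 dissociation response genes, 6 were lower in TLR7.1 RPM and 0 higher, and their sum was 1070 to 2000 CPM against 1876 to 3758 CPM in WT RPM. Of 8 red pulp macrophage markers, 2 were lower and 0 higher, with sums of 6485 to 14333 CPM against 9035 to 17021 CPM. Erythroid markers were higher for 5 of 12 (2368 to 4808 against 462 to 5588 CPM) and megakaryocyte and platelet markers for 3 of 5 tested (0 to 112 against 17.2 to 85.7 CPM). Plasma cell markers summed to 331 to 2550 CPM in TLR7.1 RPM and 203 to 1471 CPM in WT RPM, with 2 of 6 higher and 1 lower. The part of these lists in the differences was not tested.

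Directions within mice and by date were counted only for genes already called from the same libraries. Their agreement is therefore partly set by that choice and is no separate support for the calls. The same shares were not computed for all called genes. Within mice, all 23 genes called between iHPC and Mono had the same direction in 6 of 6 mice. Of the 15 genes called between iHPC and RPM, 7 did, as did 16 of 20 between RPM and Mono in TLR7.1 mice and 19 of 23 in WT mice. Spleens were collected on 13, 21 and 26 December. On each date all 15, 23 and 20 calls of the TLR7.1 comparisons and the 4 genotype calls in RPM kept their direction, and in WT mice 21 of 23 did, with Laptm4a and Naglu differing on 21 December, when 1 WT mouse was collected.

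Other genes of the lysosome and of enzyme delivery to it were counted from a list of 94. Their summed level was 13503.5 ± 496 CPM in WT Mono and 15672.5 ± 712 in WT RPM, without overlap (mean ± SD, n = 6). In TLR7.1 mice it was 13085 ± 548 CPM in monocytes, 14644 ± 1800 in macrophages and 11926 ± 571 in iHPC. Of the 94, 86 could be tested. In iHPC, 10 were higher and 24 lower than in RPM, and 15 were higher and 20 lower than in Mono. These were 39.5% and 40.7% of the 86, against 27.1% and 38.7% of all genes tested. RPM differed from Mono with 24 higher and 23 lower in TLR7.1 mice and 31 higher and 18 lower in WT mice. The shares were 54.7% and 57%, against 46.6% and 46.2% of all genes. Cd63, a tetraspanin of late endosomes, was higher than in TLR7.1 Mono in both iHPC (5.59 ± 0.50, 145 against 2.79 CPM) and TLR7.1 RPM (5.14 ± 0.50, 107 CPM), and higher in TLR7.1 RPM than in WT RPM (1.37 ± 0.42, adjusted p = 0.037). Laptm4b, a relative of Laptm4a, was higher in iHPC than in Mono (1.78 ± 0.30). Pld3, a lysosomal exonuclease, was higher in RPM than in Mono in TLR7.1 mice (3.90 ± 0.24) and lower in iHPC than in RPM (-2.67 ± 0.23, 112 against 724 CPM).

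Further members of that list separated monocytes from macrophages. Slc37a2, a sugar-phosphate carrier, was higher in RPM of both genotypes (4.50 ± 0.42 in WT and 4.10 ± 0.41 in TLR7.1), and Mcoln2, a relative of Mcoln1, was higher in WT RPM (4.15 ± 1.03). Igf2r, the large mannose 6-phosphate receptor, held 37.1 CPM in WT RPM and 0.195 CPM in WT Mono (adjusted p = 1.6e-06), and was lower in iHPC than in TLR7.1 RPM (-2.45 ± 0.77). Tm6sf1 was lower in RPM (-2.57 ± 0.35 in WT and -2.76 ± 0.35 in TLR7.1) and higher in iHPC than in RPM (1.57 ± 0.35). Smpdl3b, a sphingomyelinase-like phosphodiesterase, was lower in WT RPM than in WT Mono (-4.17 ± 0.87) and higher in iHPC than in RPM (2.45 ± 0.73). The sulfatase Arsk was higher in iHPC than in RPM (1.65 ± 0.48), whereas the sulfatase Arsg held 0.771 CPM in iHPC and 27.1 CPM in TLR7.1 RPM (adjusted p = 4.7e-05). Lower in iHPC than in Mono were Pqlc2, a cationic amino acid exporter (-3.05 ± 0.35), and Galns, a hydrolase of glycosaminoglycans (-2.41 ± 0.52). Within TLR7.1 mice, Galns (-2.65 ± 0.54) and Sumf2 (-1.98 ± 0.76) were also lower in RPM than in Mono.

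Between genotypes, Slc11a1, the phagosomal metal transporter NRAMP1, was the only gene of the 86 called in Mono (-0.67 ± 0.13, adjusted p = 0.0017, with all TLR7.1 libraries below all WT libraries). In RPM, Cd63 and the pump subunit Atp6v1c1 (0.50 ± 0.16) were higher in TLR7.1 mice, and the pump subunit Atp6v1g2 (-2.53 ± 0.67) and the nucleoside transporter Slc29a3 (-0.91 ± 0.27) were lower. The shares called were 1.16% in Mono and 4.65% in RPM, against 2.1% and 8.25% of all genes.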

How the data were processed

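Lysates of 500 sorted cells were amplified with SMART-Seq v4 and prepared with Nextera XT, per the labels' protocols. The submitters' processing notes name HTSeq 0.4.1, TopHat, Bowtie, SAMtools, Picard, FastQC, CASAVA 1.8.2 and build NCBIM37. Annotation release, strand and read filtering: not given in the sources used here. As deposited, the authors' table holds raw whole-number counts for every Ensembl gene, with no normalization. The full-length cDNA was amplified and the sources mention no molecular identifiers, so counts include copies.

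Symbols and exon lengths came from GENCODE M21, joined by identifier (99.11% of counts had a symbol). Genes were kept by filterByExpr, scaled by TMM and fitted with robust quasi-likelihood on all 30 libraries with 1 mean per group (edgeR 4.0.16, limma 3.58.1, R 4.3.3). SE is the log2 fold change divided by the square root of F. Tests were two-sided and adjusted over 11030 genes. A run on counts simulated with the fitted spread checked the code and not the calls given here. Alternatives were DESeq2 1.42.0, RLE scaling, no filter, the compared libraries alone, the mouse as a block, collection date, thinning to 250000 counts, leaving out libraries under 300000 counts, each mouse or the iHPC library of mouse 24261. Populations with the same mouse number come from 1 animal, which pairs them; residual correlations within mice ran from -0.080 to 0.196 over 24 pairs, with 2 over 0.1. No libraries were identical. Full values are given for members among the 3 largest called rises or falls of a comparison and for Lamp1; up to 3 rises and 3 falls of other lysosome genes at 20 CPM or more are named. Some genes within this rule are not reported here. Genes named beyond this rule were chosen after their values were seen. Members and lists were chosen with earlier results of these data known.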

Additional observations from a re-analysis of the deposited data

Results flagged for a closer look

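Of 210 values of a gene or of the sum in a group of 6 libraries, 28 had a highest or lowest library whose gap to the next exceeded Dixon's 95% critical value, where about 10.5 would by chance. Of the 28, 13 were in libraries of mouse 24380, which gave the shallowest TLR7.1 RPM and iHPC libraries.

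In the iHPC library of mouse 24380, Ids held 275 CPM against 90.6 to 103 CPM in the other 5 libraries, Gm2a 680 against 324 to 372, Laptm5 1578 against 847 to 1035, Laptm4a 387 against 243 to 279, Sgsh 98.6 against 18.5 to 37.9 and Atp6ap1 356 against 205 to 242, while Ctns was low at 10.6 against 30.9 to 40.7. The RPM library of the same mouse was the highest for Lamp1 (1256 CPM against 663 to 824) and Atp6v0d1 (455 against 236 to 285). Its Mono library was the highest for Lamp1 (1142 CPM), Atp6ap1 (680), Atp6v1b2 (1066) and Naglu (70.3 against 13.3 to 29.1). Lamp1 was thus high in both its Mono and its RPM library, whereas its iHPC library held the lowest Lamp1 of its group, 377 CPM against 525 to 698.

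Among the other hemophagocyte libraries, Psap was high in mouse 24068 (374 CPM against 260 to 292) and Manba in mouse 24304 (74.5 against 48.1 to 52.8), and the summed level of the 41 genes was low in mouse 24308 (9791 CPM against 11043 to 11784). In TLR7.1 RPM, Scarb2 was high in mouse 24068 (276 CPM against 71.3 to 144), Glb1 in mouse 24308 (145 against 34.9 to 75.8) and Arsb in mouse 24107 (20.2 against 0). In TLR7.1 Mono, Lipa was high in mouse 24304 (389 CPM against 283 to 320), and Arsa and Acp2 were high in mouse 24308 (35 against 17.2 to 21.8, and 120 against 61.2 to 82.7).

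In WT RPM, Arsa was high in mouse 24323 (85.6 CPM against 22.4 to 45.9), the shallowest library of all, and Arsb in mouse 24415 (5.98 against 0). Mouse 24117 had a high Ppt1 (954 CPM against 514 to 657) and a low Sgsh (10.3 against 57.8 to 85.6). In WT Mono, Scarb2 was low in mouse 24323 (135 CPM against 178 to 204) and Fuca1 in mouse 24117 (275 against 315 to 339).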

How the results depend on the processing

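RLE scaling, DESeq2, collection date and leaving out libraries under 300000 counts or the iHPC library of mouse 24261 kept every count of called lysosome genes within 1.5 times. Fitting only the libraries compared gave 7 calls between iHPC and RPM in place of 15, 3 between genotypes in Mono in place of 0, and 0 between genotypes in RPM in place of 4. With no filter on low counts the last was 2. Thinning every library to 250000 counts, without the WT RPM library of mouse 24323, left 3 calls between iHPC and RPM, 11 between iHPC and Mono, 12 and 10 between RPM and Mono in TLR7.1 and WT mice, and 0 between genotypes in RPM. Thinning removes counts by construction, and the cause of the other shifts was not tested. The share of all genes called was not counted under the alternatives. In thinned counts Cln3 changed sign between iHPC and Mono (0.22), the only sign change among 85 calls. Under all alternatives 35 of the 85 calls held: 3 of 15 between iHPC and RPM, 11 of 23 between iHPC and Mono, 11 of 20 and 10 of 23 between RPM and Mono in TLR7.1 and WT mice, and 0 of 4 between genotypes in RPM. Leaving out 1 mouse gave 10 to 15, 19 to 21, 17 to 21, 17 to 20 and 0 to 4 calls in these comparisons, and 0 to 0 for the genotypes in Mono and for the interaction.

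With the mouse as a replicate block, 12 genes were called between iHPC and RPM, 22 between iHPC and Mono, 22 and 23 between RPM and Mono in TLR7.1 and WT mice, and 0 for the interaction. Besides the losses given beside their results, this block removed no call, and it added Atp6v1h in iHPC against Mono and in WT RPM against Mono, Cln3 in RPM against Mono of both genotypes, and Grn in TLR7.1 RPM against Mono. No paired analysis was possible because WT and TLR7.1 groups share no mice in the genotype comparisons. Gla and Arsb rested on the fewest counts in RPM. Thinning also removed calls of abundant genes, such as Acp5, Lamp1 and Hexa between iHPC and RPM.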
